A study of Mus musculus with 12 samples.

Results

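The transcripts of genes that restrain signalling through the kinase ERK were followed in mouse embryonic fibroblasts exposed for 24 h to excess S-adenosylmethionine (SAM), to adenine, or to an inhibitor of the methyl cycle. The genes were chosen by symbol (Dusp1, Dusp4, Dusp5, Dusp6, Spry1, Spry2, Spry4, Spred1, and Spred2) and matched to the deposited table through their Ensembl identifiers, with the version number dropped. Of these 9 genes, 7 were among the 12591 genes of the table: 3 Dusp genes, 2 Sprouty genes, and 2 Spred genes. Dusp4 and Spry4 were not analysed here.

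Growth factor receptors activate RAS, RAF, MEK, and ERK in turn, and active ERK switches on immediate early genes as well as its own brakes. The nuclear phosphatase DUSP5 and the cytoplasmic phosphatase DUSP6 remove phosphate from ERK, whereas DUSP1, also nuclear, acts on JNK and p38 as well. Sprouty proteins dampen the path from receptors to RAS and RAF, and Spred proteins bring the RAS inhibitor neurofibromin to the membrane. In fibroblasts, several of these genes are known to be induced by serum and growth factors within hours, as parts of a negative feedback loop.

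The cells came from embryos heterozygous for PER2::LUC, a knock-in that fuses luciferase to the clock protein PER2, and all groups carried this allele. Once confluent, they received 3.3 mM HCl alone (CTL) or the same HCl with 10 μM deazaneplanocin A (DZ, which inhibits the enzyme AHCY), 1 mM adenine, or 1 mM SAM. Each of the 4 groups had 3 dishes, and polyadenylated RNA from every dish was sequenced. How many embryos gave the cells, and whether the dishes were independent cultures, is not given in the sources used here, so the p-values measure only the spread between dishes. In RNA from whole dishes, fewer cells of a type and less RNA per cell cannot be told apart.

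Depth was between 45649534 and 56789090 reads on the listed genes in a library, and the 7 genes had between 232 reads (Spry2 in a CTL dish) and 5660 reads (Spry1 in a SAM dish). SAM replicate 3 stood apart: chi-square divided by its degrees of freedom, over the genes, was 19.1 and 15.7 against the other SAM libraries, whereas all other pairs within a group were between 4.76 and 7.07. Results for SAM are therefore also given without it, one by one for those of the 7 genes that were called, and together for the gene lists. Of 10 fibroblast markers 8 were in the table (Dcn and Lum were not), and their summed level was 21840 to 22280 CPM in CTL, 27660 to 28260 in DZ, 24220 to 26540 in adenine, and 15860 to 17240 in SAM. At a limma FDR below 0.01, 7 of these markers were higher and 1 lower than in CTL in DZ, 5 and 1 in adenine, and 7 and 1 in SAM. Of all genes, 22.6% were higher and 23.4% lower in DZ, 30.6% and 31.0% in adenine, and 33.7% and 35.7% in SAM. The marker lower in SAM was Fn1, the most abundant of them in CTL (log2 fold change -1.58). None of the endothelial, epithelial, or myogenic markers was in the table, from which genes under 1 CPM in any sample had been dropped by the authors. Among 6 leukocyte markers only Cd68 was listed, at 2.99 to 3.96 CPM in CTL, 2.70 to 3.75 in DZ, 10.8 to 12.3 in adenine, and 15.5 to 17.6 in SAM. The part of these shifts in the results below was not tested.

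Per length of transcript, Dusp1 and Spry1 were the most abundant of the 7 genes and Spry2 the least. In CTL, Dusp1 was at 23.9 ± 1.2 CPM per kb of its canonical transcript (SD, n = 3), Spry1 at 13.2 ± 0.62, Spred1 at 9.45 ± 0.24, Spred2 at 8.28 ± 0.30, Dusp5 at 7.45 ± 0.39, Dusp6 at 4.60 ± 0.45, and Spry2 at 1.98 ± 0.34. The CTL dishes of neighbours in this order did not overlap, the closest being Spred2, at 8.07 to 8.62, and Dusp5, at 7.02 to 7.78. The order was different in the other groups. In SAM, Dusp1 at 35.4 to 37.2 CPM per kb and Spry1 at 35.2 to 36.7 overlapped, and in adenine Dusp5, at 13.4 ± 0.53, had passed Spred2, at 8.29 ± 0.38.

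**Figure D1:**
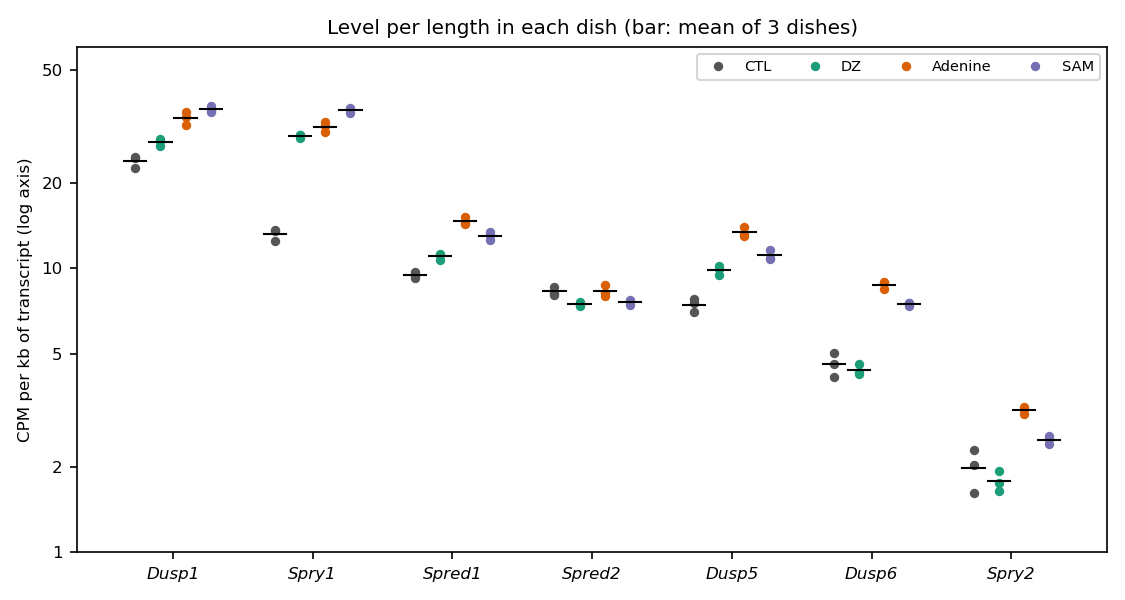
Level of each gene in CPM per kb of canonical transcript (log axis) in the 3 dishes of each group, with a bar at the mean. Spry1 moved from 13.2 in CTL to 36.1 in SAM and met Dusp1 at 36.2, whereas Spred2 stayed between 7.35 and 8.72 in all 12 dishes.

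Promoter sequences were searched for short motifs of factors that act in serum, stress, and cAMP responses. RefSeq gives 1 window for each of the 7 genes, from 250 bases before to 50 bases after the start of transcription, in build GRCm38.p6. Both strands were searched for the cAMP response element (CRE, TGACGTCA), its core TGACG, AP-1 (TGANTCA), the ETS core (CCGGAAG), the E-box (CACGTG), the TATA box (TATAAA), and the serum response element. Only the bases before the start are shown, 5′ to 3′ on the strand of the gene, with matches in capitals. Dusp1 (chr17:26508473-26508722, minus strand) is shown for its CRE, Dusp5 (chr19:53528895-53529144, plus strand) for its serum response elements, and Spry1 (chr3:37639697-37639946, plus strand) because it rose the most and held none of the motifs.
Dusp1: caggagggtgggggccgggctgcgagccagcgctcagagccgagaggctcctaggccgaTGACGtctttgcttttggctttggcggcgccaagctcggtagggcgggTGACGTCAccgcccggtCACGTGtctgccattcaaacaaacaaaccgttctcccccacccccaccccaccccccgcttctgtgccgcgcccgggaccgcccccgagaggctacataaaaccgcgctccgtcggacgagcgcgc
Dusp5: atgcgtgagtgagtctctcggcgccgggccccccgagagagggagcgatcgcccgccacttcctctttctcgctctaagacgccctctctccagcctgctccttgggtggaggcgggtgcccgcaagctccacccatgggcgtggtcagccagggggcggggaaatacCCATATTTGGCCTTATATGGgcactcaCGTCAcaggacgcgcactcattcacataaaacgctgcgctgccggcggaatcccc
Spry1: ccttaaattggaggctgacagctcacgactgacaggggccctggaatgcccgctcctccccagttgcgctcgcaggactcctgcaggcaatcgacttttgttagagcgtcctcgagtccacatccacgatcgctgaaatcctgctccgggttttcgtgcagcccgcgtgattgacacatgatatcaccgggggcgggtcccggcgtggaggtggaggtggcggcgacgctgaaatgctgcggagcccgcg
The capitals in Dusp1 are a TGACG that begins 191 bases before the start, a full CRE at 143 bases (which contains TGACG on both strands), and an E-box at 126 bases. In Dusp5 they are a pair of adjoining serum response elements, at 82 and 72 bases, and a TGACG on the other strand at 55 bases. A full CRE is found in 1.79% of all 32851 promoter windows of this length, a serum response element in 1.63%, an E-box in 7.15%, and TGACG in 20.8%. Spred2 held TGACG on the other strand, 51 bases before its start, and Dusp6, Spred1, Spry1, and Spry2 held none of the motifs. AP-1 (7.81% of all windows), the ETS core (8.86%), and the TATA box (13.6%) were in none of the 7 windows.

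Adenine and SAM raised 6 of the 7 genes each, and DZ raised 4. Genes were called at an FDR below 0.01 with limma, adjusted over all genes of the table. In adenine 6 genes were higher and none lower, where 61.6% of all genes were called, 30.6% higher and 31.0% lower. SAM likewise had 6 higher and none lower, against 69.3% of all genes called, 33.7% higher and 35.7% lower. DZ had 4 higher and 1 lower, against 45.9% of all genes called, 22.6% higher and 23.4% lower. Of these calls, Spry2 in SAM (limma adjusted p = 0.00948) and Spred2 in DZ (0.00856) were close to the threshold. Most fits without 1 library lost them. The median log2 fold change over the 7 genes was 0.21 in DZ, 0.69 in adenine, and 0.58 in SAM, where the median over all genes was -0.0057, -0.0030, and -0.015. With plain read totals as the scale, in place of the normalized library sizes of the authors, the median of all genes in SAM moved to 0.11, and 61.2% of its called genes were higher in place of 48.5%. All 3 treatments were compared with the same CTL libraries.

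**Figure D2:**
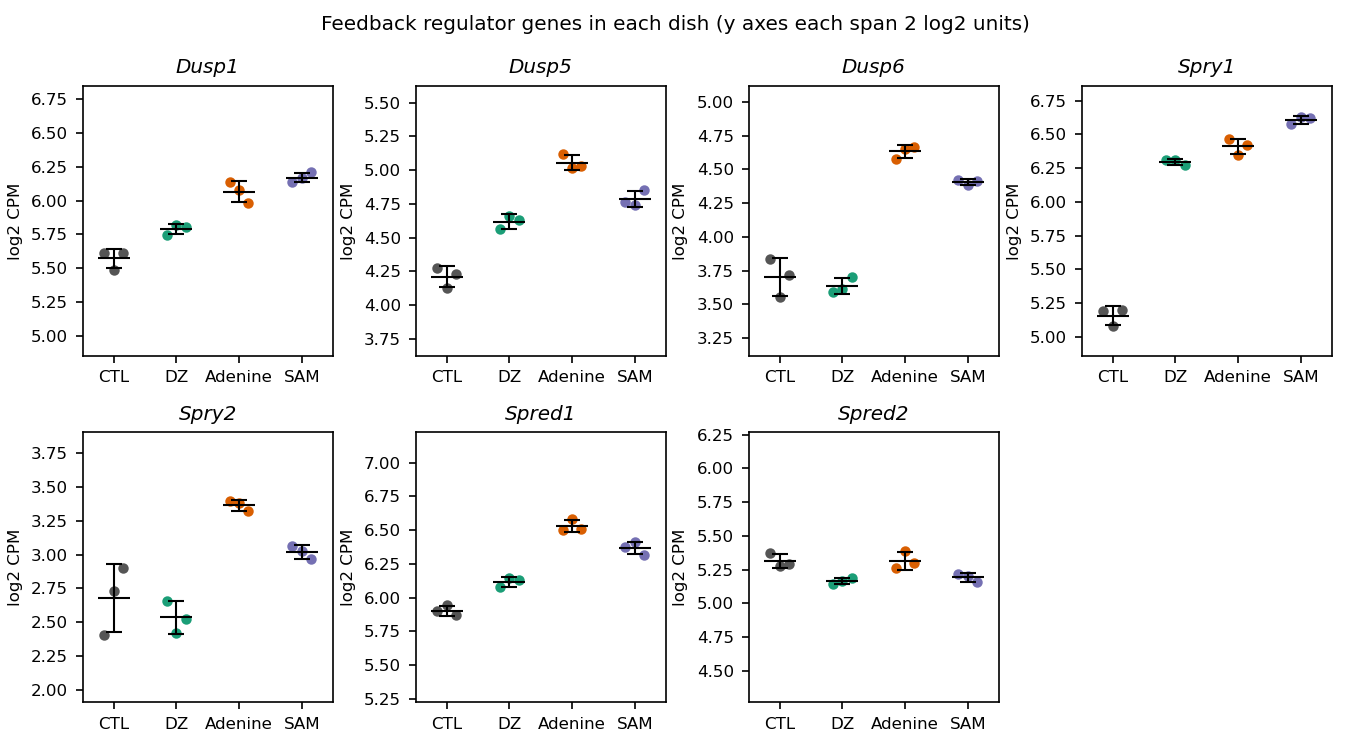
Level of the 7 genes in log2 CPM in each dish, by group, with the mean and SD of 3 dishes (n = 3); every panel spans the same range of log2 units. Adenine and SAM dishes lie above all CTL dishes for each gene except Spred2, and DZ dishes overlap CTL dishes for Dusp6 and Spry2. The share of all genes whose dishes separate from CTL in this way is not given here.

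Among the phosphatase genes, Dusp1 and Dusp5 rose in all 3 treatments and Dusp6 in adenine and SAM. Dusp1 (chromosome 17, 26724564 to 26781102 in GRCm39, minus strand) was at 5.61, 5.49, and 5.62 log2 CPM in the CTL dishes, 5.75, 5.82, and 5.80 in DZ, 6.14, 6.08, and 5.98 in adenine, and 6.14, 6.16, and 6.21 in SAM. All treated dishes were above all CTL dishes. The log2 fold change was 0.22 in DZ (SE 0.046, limma adjusted p = 7.98e-04), 0.49 in adenine (adjusted p = 1.07e-07), and 0.60 in SAM (adjusted p = 7.58e-09). Its span in GENCODE vM39 contains part of Ergic1 on the opposite strand, which was more abundant (8.25 log2 CPM in CTL). The log2 fold changes of Ergic1 were 0.25 in DZ, -0.040 in adenine, and -0.20 in SAM. The paper used another GENCODE release for its reads, and whether the 2 genes overlap in that release was not checked. The library kit marks strand, but the strand setting of the counting is not given in the sources used here, so a share of reads between them was not tested.

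Dusp5 (chromosome 19, 53517532 to 53530862, plus strand) was higher in adenine than in SAM. It was at 4.27, 4.13, and 4.23 log2 CPM in CTL, 4.56, 4.66, and 4.63 in DZ, 5.12, 5.01, and 5.03 in adenine, and 4.76, 4.74, and 4.85 in SAM. All treated dishes were above all CTL dishes, and the SAM dishes were all below the adenine dishes. Against CTL, it was higher by 0.41 in DZ (SE 0.054, limma adjusted p = 1.34e-05), 0.84 in adenine (adjusted p = 1.31e-09), and 0.58 in SAM (adjusted p = 9.30e-08).

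Dusp6 (chromosome 10, 99086564 to 99103361, plus strand), the cytoplasmic ERK phosphatase, separated the adenine and SAM dishes from the CTL dishes. Its level was 3.84, 3.56, and 3.71 log2 CPM in CTL, 3.59, 3.61, and 3.71 in DZ, 4.58, 4.65, and 4.67 in adenine, and 4.42, 4.38, and 4.42 in SAM. The DZ dishes lay within the range of the CTL dishes, whereas all adenine and SAM dishes were above the CTL dishes. In adenine the log2 fold change was 0.93 (SE 0.068, limma adjusted p = 6.26e-09), a 1.91-fold rise, and in SAM it was 0.70 (adjusted p = 1.25e-07), a 1.63-fold rise. In DZ the difference was -0.066 (95% confidence interval -0.21 to 0.079, limma adjusted p = 0.42), which leaves room for a small change in either direction at this spread, and without CTL replicate 1 it was 0.0023.

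Spry1 showed the largest rise of the 7 genes in each treatment. Spry2 rose in adenine, was called near the threshold in SAM, and was not called in DZ. Spry1 (chromosome 3, 37693897 to 37698755, plus strand) was at 5.19, 5.08, and 5.20 log2 CPM in CTL. It was at 6.31, 6.31, and 6.27 in DZ, 6.46, 6.35, and 6.42 in adenine, and 6.57, 6.63, and 6.62 in SAM. No treated dish came near the CTL dishes, and the SAM dishes were all above the adenine dishes. The rise was 2.20-fold in DZ (log2 fold change 1.14, SE 0.040, limma adjusted p = 1.02e-11), 2.38-fold in adenine (1.25, adjusted p = 5.48e-13), and 2.73-fold in SAM (1.45, adjusted p = 4.60e-14). Among the rises of all genes it ranked 123rd in DZ, 514th in adenine, and 516th in SAM. The promoter of this gene, printed above, held none of the searched motifs.

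Spry2 (chromosome 14, 106128766 to 106136446, minus strand) had the lowest level and the widest spread in CTL. Its CTL dishes were at 2.40, 2.73, and 2.90 log2 CPM, the DZ dishes at 2.66, 2.42, and 2.52, the adenine dishes at 3.40, 3.38, and 3.32, and the SAM dishes at 3.06, 3.03, and 2.96. Every adenine and SAM dish was above every CTL dish, by a narrow margin in SAM, and DZ dishes overlapped CTL dishes. Adenine raised it by 0.69 (SE 0.11, limma adjusted p = 3.55e-05). In SAM it was called at 0.34 (limma adjusted p = 0.00948), close to the threshold, and the call was lost in 5 of 6 fits that left out 1 library, with 0.20 (adjusted p = 0.060) without CTL replicate 1, 0.37 (0.015) without CTL replicate 2, and 0.32 (0.031), 0.34 (0.025), and 0.37 (0.013) when SAM replicate 1, 2, or 3 was left out. In DZ the difference was -0.14 (95% confidence interval -0.37 to 0.088, limma adjusted p = 0.273).

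Of the Spred genes, Spred1 rose in all treatments and Spred2 did not. Spred1 (chromosome 2, 116951524 to 117018277, plus strand) was at 5.90, 5.94, and 5.87 log2 CPM in CTL, 6.08, 6.14, and 6.13 in DZ, 6.50, 6.58, and 6.51 in adenine, and 6.37, 6.41, and 6.32 in SAM. The groups were tight. As for Dusp5, all treated dishes were above all CTL dishes, and the SAM dishes were all below the adenine dishes. It was higher than in CTL by 0.21 in DZ (SE 0.036, limma adjusted p = 1.41e-04), 0.63 in adenine (adjusted p = 3.95e-10), and 0.46 in SAM (adjusted p = 1.11e-08).

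Spred2 (chromosome 11, 19874355 to 19974442, plus strand) was at 5.37, 5.28, and 5.29 log2 CPM in CTL, 5.14, 5.16, and 5.19 in DZ, 5.26, 5.39, and 5.30 in adenine, and 5.22, 5.21, and 5.16 in SAM. Adenine dishes overlapped CTL dishes, and DZ and SAM dishes were slightly below them. In DZ it was called lower, with the smallest difference called among the 7 genes (-0.15, SE 0.044, limma adjusted p = 0.00856), and none of the 6 fits without 1 DZ or CTL library kept the call, with values between -0.17 without CTL replicate 2 and -0.12 without CTL replicate 1. In SAM the difference was -0.12 (95% confidence interval -0.21 to -0.029, limma adjusted p = 0.0191), which was 0.00015 with plain read totals and was called at -0.16 (adjusted p = 0.00314) with the libraries centred on their medians. In adenine it was 0.0011 (interval -0.092 to 0.094, limma adjusted p = 0.984), so that a change of more than about 0.094 in either direction lies outside the interval.

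Without SAM replicate 3, the log2 fold changes against CTL were 0.58 for Dusp1, 0.54 for Dusp5, 0.70 for Dusp6, 1.44 for Spry1, 0.37 for Spry2, and 0.49 for Spred1. All except Spry2 were still called, so that 5 genes were called in place of 6, and Spred2 was again not called. The share of all genes called without this library is not given here.

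**Figure D3:**
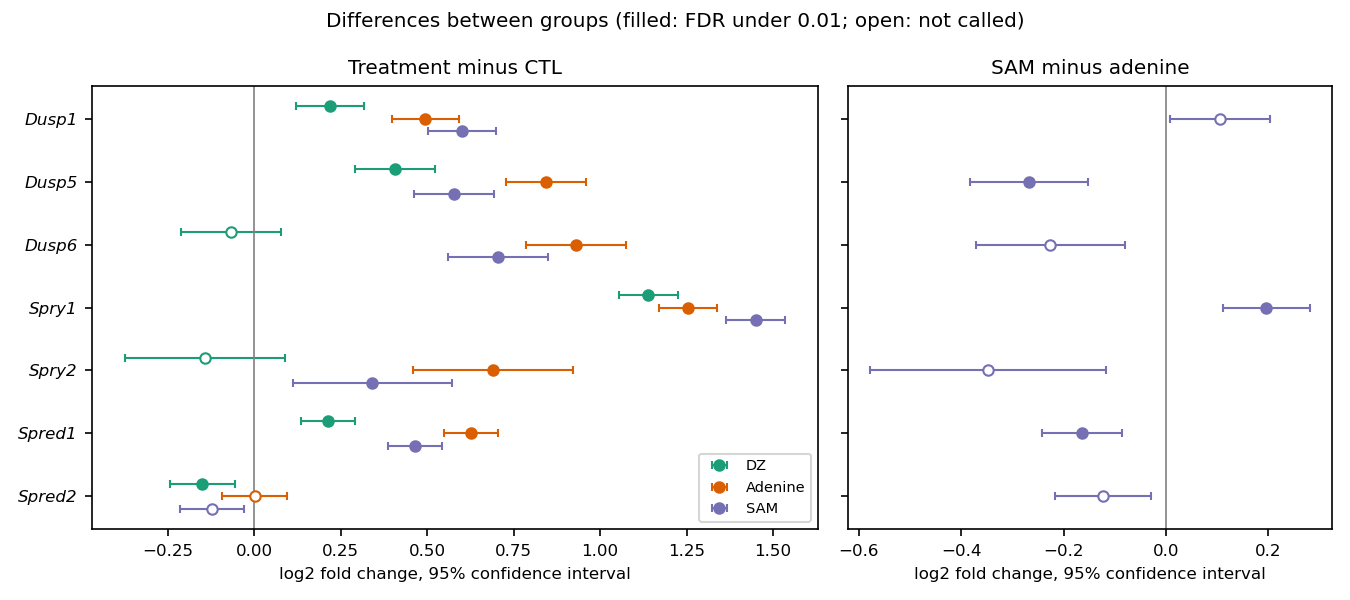
Log2 fold change of each gene with its 95% confidence interval from the limma fit, for the 3 treatments against CTL (left) and for SAM minus adenine (right); filled points passed an FDR of 0.01. Spry1 lies farthest right in each treatment, at 1.14, 1.25, and 1.45, and Spred2 stays at or slightly below 0.

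SAM and adenine, both given at 1 mM for 24 h, form the only pair of compounds at a matched dose, and 1 pair was compared; SAM contains the adenosine moiety, of which adenine is the base. Between them 3 genes differed, 1 higher and 2 lower in SAM, where 42.7% of all genes were called, 20.8% higher and 22.0% lower (of the called genes 48.6% were higher, and 63.2% with plain read totals). Spry1 was higher in SAM by 0.20 (SE 0.040, limma adjusted p = 7.21e-04). Dusp5 was lower in SAM by 0.27 (log2 fold change -0.27, SE 0.054, limma adjusted p = 6.72e-04), and Spred1 differed by -0.16 (SE 0.036, adjusted p = 0.00145). In all these genes the 3 SAM dishes lay on 1 side of the 3 adenine dishes. The same was true of the 4 genes not called, so it lends these calls no added weight. The call of Spred1 was lost without adenine replicate 2 (-0.14, limma adjusted p = 0.0107) and with plain read totals (-0.10, adjusted p = 0.0211). Without SAM replicate 3 the values were 0.19 for Spry1, -0.30 for Dusp5, and -0.14 for Spred1, and all 3 calls were kept.

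The remaining 4 genes missed the threshold between SAM and adenine, and their intervals do not show them to be equal. Dusp6 was at -0.23 (95% confidence interval -0.37 to -0.081, limma adjusted p = 0.0108), Spry2 at -0.35 (-0.58 to -0.12, adjusted p = 0.0131), Spred2 at -0.12 (-0.22 to -0.030, adjusted p = 0.0265), and Dusp1 at 0.11 (0.0082 to 0.20, adjusted p = 0.0618). The SAM dishes were all below the adenine dishes in the first 3, and all above them in Dusp1. How many of all genes have SAM and adenine dishes that separate completely is not given here. Dusp1 was called with plain read totals (0.17, limma adjusted p = 0.00636). DZ was given at 10 μM, so its values stand beside those of adenine and SAM without a comparison: 1.14, 1.25, and 1.45 for Spry1, and -0.066, 0.93, and 0.70 for Dusp6, in DZ, adenine, and SAM.

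The genes with the most similar pattern to each of the 7 were sought by the Euclidean distance between the log2 fold changes in the 3 treatments, over all genes with a symbol. No gene of the set had another as one of its 2 nearest genes. Nearest to Spry1 were Zfp974 (distance 0.14) and Erfe (0.23), and nearest to Dusp6 were Psd3 (0.078) and Sox2 (0.090). Dusp1 was nearest to Fzd5 (0.038) and Sars2 (0.042), Dusp5 to Eya1 (0.038) and Gstcd (0.085), and Spry2 to Etl4 (0.052) and Kbtbd7 (0.081). Spred1 was nearest to Gca (0.037) and Dclk1 (0.063), and Spred2 to Ndufv3 (0.0034) and Spen (0.024). Within the set, Dusp1 and Spred1 were closest to each other, at 0.19, and Spry1 was the most distant from all others, with Dusp5 nearest at 1.21.

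The relatives of these genes went in both directions. In the list of other MAP kinase phosphatases and Sprouty relatives, 7 of 9 genes were measured, and 4 rose and 1 fell in DZ, 2 rose and 3 fell in adenine, and 2 rose and 3 fell in SAM (4 and 0, 2 and 2, and 2 and 3 with plain read totals). The share called was 71.4% in each treatment, beside 45.9% of all genes in DZ, 61.6% in adenine, and 69.3% in SAM. The median log2 fold changes were 0.21, -0.20, and -0.091. Dusp10, a phosphatase for JNK and p38, rose in all 3 treatments, by 0.71, 0.95, and 1.44, and Dusp8, of the same preference, was at -0.92 in SAM (limma adjusted p = 3.33e-08). Spred3, the relative of Spred1 and Spred2, was lower in adenine (-0.46) and in SAM (-0.67).

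Other inhibitors of RAS and receptor signalling were all measured, 14 of 14. In adenine 6 rose and 1 fell, in SAM 7 rose and 4 fell (7 and 1 with plain read totals), and in DZ 3 rose and 1 fell. These are 28.6% of the list in DZ and 50% in adenine, below the 45.9% and 61.6% of all genes, and 78.6% in SAM, where 69.3% of all genes were called. The 11 calls in SAM came down to 7 both without a variance trend and in a model of the SAM and CTL libraries alone. Errfi1, a feedback inhibitor of the EGF receptor, rose by 0.42 in DZ, 1.89 in adenine, and 1.23 in SAM, and Lrig1, which promotes loss of the same receptor, rose by 0.57, 1.31, and 1.56.

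Genes known to be transcribed in response to ERK mostly rose as well. Of 20 listed 19 were measured, and 14 rose and none fell in DZ, 16 rose and 2 fell in adenine, and 14 rose and 3 fell in SAM (14 and 0, 16 and 2, and 15 and 3 with plain read totals). The share called was 73.7%, 94.7%, and 89.5%, beside 45.9%, 61.6%, and 69.3% of all genes, and medians of the log2 fold change were 0.30, 1.1, and 1.0. The 14 calls in DZ came down to 9 without CTL replicate 2. In adenine, the zinc finger factors Egr2 and Egr3 rose by 3.33 and 3.23, and in SAM by 1.15 and 1.83. Etv4, an ETS factor, rose by 1.91 in adenine and 2.21 in SAM, and Fos, a subunit of AP-1, by 2.24 and 1.85. Levels in CTL were low for Egr2 (0.17, 0.67, and 0.41 log2 CPM) and Fos (0.74, 0.88, and 1.21), close to the 1 CPM limit of the authors. When genes under a mean of 3 log2 CPM were removed, 14 genes of the list were called in adenine in place of 18. Fos was at 0.054 in DZ (limma adjusted p = 0.729), where Epha4 (0.87) and Fosb (0.72) rose most. Myc went the other way in the 1 mM treatments, with -0.31 in adenine and -0.69 in SAM. Between SAM and adenine, 1 of the 19 genes was higher in SAM and 8 were lower (2 and 7 with plain read totals). The share called was 47.4%, near the 42.7% of all genes called between SAM and adenine, 20.8% higher and 22.0% lower. The gene higher in SAM was Ccnd1, at 0.51, named after its values were seen.

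**Figure D4:**
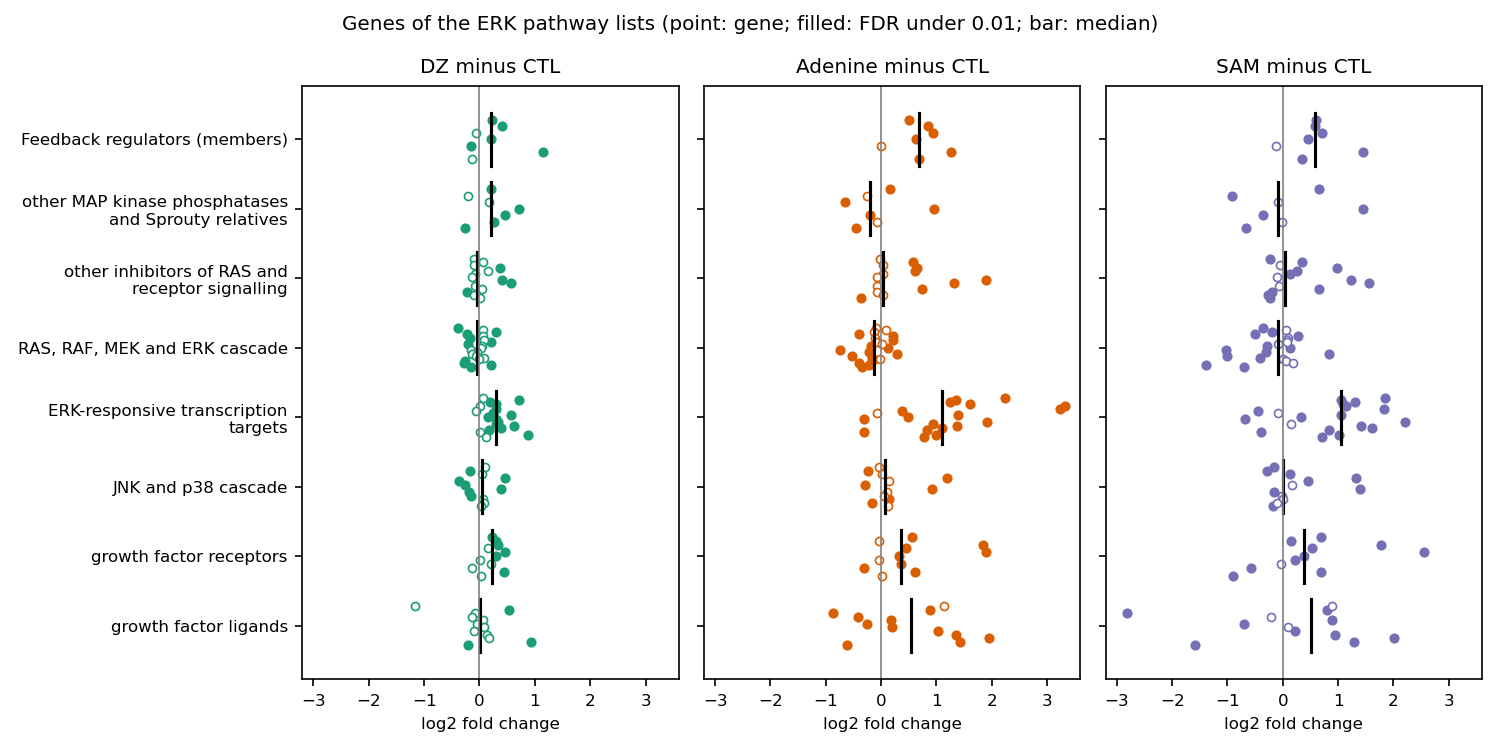
Log2 fold change against CTL of each measured gene in the set and in 7 lists of the ERK pathway and its neighbours, 1 panel for each treatment; a point is a gene, filled where it passed an FDR of 0.01, and the bar is the median of the list. The medians of the ERK-responsive genes were 0.30 in DZ, 1.1 in adenine, and 1.0 in SAM, and those of the cascade were -0.039, -0.13, and -0.082.

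The transcripts of the cascade itself were called about as often as all genes. All 21 genes of the RAS, RAF, MEK, and ERK cascade were measured, of which 3 rose and 7 fell in DZ, 4 rose and 10 fell in adenine, and 3 rose and 10 fell in SAM, where plain read totals gave 10 and 9. This is 47.6%, 66.7%, and 61.9% of the list, beside 45.9%, 61.6%, and 69.3% of all genes. In DZ, 6 of these calls were left without DZ replicate 3, in place of 10. The kinase genes Braf and Map2k1 were lower in adenine, at -0.75 and -0.52, and in SAM, at -1.02 and -1.01. Rps6ka2, which encodes a kinase downstream of ERK, was at -1.38 in SAM, and the scaffold gene Ksr1 rose there by 0.83. In the JNK and p38 cascade, which includes the other substrates of DUSP1, 12 of 14 genes were measured, with 2 higher and 5 lower in DZ, 3 and 3 in adenine, and 4 and 4 in SAM (2 and 5, 6 and 3, and 7 and 1 with plain read totals). The share called was 58.3%, 50%, and 66.7%, beside the same shares of all genes. Map2k3, an activator of p38, rose by 0.39, 0.93, and 1.40, and the p38 gene Mapk11 by 0.47, 1.19, and 1.33. The JNK gene Mapk9 was lower, at -0.17, -0.23, and -0.28. Mapk12, another p38 gene, was at -0.36 in DZ and 0.45 in SAM.

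Upstream, 11 of 15 growth factor receptors were measured, and 6 rose and none fell in DZ, 7 rose and 1 fell in adenine, and 8 rose and 2 fell in SAM (8 and 0, 7 and 1, and 8 and 2 with plain read totals). The receptors called were 54.5%, 72.7%, and 90.9% of those measured, beside 45.9%, 61.6%, and 69.3% of all genes. Pdgfra, a PDGF receptor, rose by 0.46 in DZ, 1.89 in adenine, and 2.55 in SAM, and Egfr by 0.34, 1.84, and 1.77. The receptors lower in SAM were Ddr2, at -0.91, and Insr, at -0.57. Of 20 growth factor ligands 12 were measured, with 2 higher and 1 lower in DZ, 7 and 4 in adenine, and 6 and 3 in SAM (2 and 1, 7 and 4, and 7 and 3 with plain read totals). In DZ 25.0% of the ligands were called, fewer than of all genes, and 91.7% and 75.0% in adenine and SAM. Nrg1, which encodes a ligand of ERBB receptors, rose by 0.94, 1.43, and 1.29. Igf1 rose by 1.96 in adenine and 2.00 in SAM, whereas Vegfa was at -0.21, -0.61, and -1.59 in DZ, adenine, and SAM, and Fgf21 at -0.87 in adenine and -2.82 in SAM. In both lists, medians of the log2 fold change were between 0.0047 and 0.54.

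Without SAM replicate 3, the calls against CTL in SAM were 2 higher and 3 lower among the relatives, 7 and 3 among the other inhibitors, 14 and 3 among the ERK-responsive genes, and 4 and 9 in the cascade. They were 4 and 2 in the JNK and p38 cascade, 8 and 2 among the receptors, and 6 and 4 among the ligands. No share of all genes called without this library is given beside these counts. Of the values given above for single genes of these lists in SAM, that of Ddr2 moved most, from -0.91 to -0.81, a shift of 0.094. Between SAM and adenine, 1 ERK-responsive gene was still higher and 8 were lower.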

How the data were processed

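RNA of 12 dishes, 3 in each of 4 groups, was sequenced, and per the labels the authors used Trimmomatic, HISAT2, StringTie, and edgeR with build GRCm39. The deposited table holds log2 CPM on normalized library sizes (a prior count of 2 is added before the logarithm), and all 12 columns were used. How the library sizes were normalized is not given in the sources used here. All 12591 genes were tested with limma 3.58.1 in R 4.3.3 (eBayes with a variance trend, 1 model of all libraries, two-sided, Benjamini-Hochberg adjustment, FDR 0.01). The code was first run on simulated data, in which far fewer genes changed than were called here. That run had no library as noisy as SAM replicate 3, so it does not bear on these conditions. The deposited values are logarithms, so limma was the main test, and a count test such as that of edgeR was not run. Whole reads recovered from these values (100% within 0.1 of a whole read) served for depth, plain totals, and voom. Fold changes are on this scale, which understates low genes slightly. Gene names and positions are from GENCODE vM39, which matched 12575 genes. Levels per length divide by the canonical transcript. Tables were made with Python 3.11.15, numpy 2.4.6, and pandas 2.3.3, and plots with matplotlib 3.10.9.

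The 9 genes and the 7 lists were chosen with earlier results of these data known, so list counts are descriptions. All genes of the set are named. From each list, names were taken from the 2 largest called rises and falls in each comparison with CTL, and for each gene of the set the 2 nearest genes by distance. The alternatives were plain totals, median centring, log2(CPM + 1), a filter at a mean of 3 log2 CPM, voom, no variance trend, a model of only the groups compared, a replicate block, an FDR of 0.05, and leaving out each of the 12 libraries.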

Additional observations from a re-analysis of the deposited data

How the results depend on the processing

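Between SAM and adenine, 3 of the 7 genes were called, and 5 were called with voom on the recovered reads, 5 in a model of these groups alone, and 6 at an FDR of 0.05. The share of all genes called under these alternatives, or without 1 library, is not given here. The counts therefore show only how calls depend on the setting. For the 7 genes, the counts against CTL stayed within 1.5 times under every alternative run, a loose bound where a count cannot pass 7. A like count could also hold other genes. With median centring, 6 genes were still called in SAM, but 5 were higher and 1, Spred2, was lower, and Spry2 was not called. Leaving out 1 library at a time gave 4 called genes in DZ each time, 6 in adenine, 5 to 6 in SAM, and 2 to 3 between SAM and adenine. In the lists, 5 ligands in place of 3 were called in DZ at an FDR of 0.05, 6 cascade genes in place of 10 in DZ without DZ replicate 3, 9 ERK-responsive genes in place of 14 in DZ without CTL replicate 2, and 7 other inhibitors in place of 11 in SAM without a variance trend or in a separate model. With the replicate block, 4 genes were called in DZ, 6 in adenine, 5 in SAM, and 3 between SAM and adenine: the block ended the calls of Spred2 in DZ (limma adjusted p = 0.0131) and Spry2 in SAM (0.0150), and same-numbered libraries, whose deviations from the group means had r between -0.142 and 0.181 across genes, shared only a number.

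Directions turned in Dusp6 in DZ without CTL replicate 1 (0.0023, the other end of the range being -0.14), in Spred2 in adenine with median centring (-0.050), without CTL replicate 2 (-0.018), without CTL replicate 3 (-0.0092), and without adenine replicate 2 (-0.036, the other end being 0.030), and in Spred2 in SAM with plain read totals (0.00015). None of these was called in the reported analysis. Spry2 in SAM also lost its call with median centring, without a variance trend, and in a separate model, and Spred2 in DZ with plain totals and voom. The cause was not tested. Plain totals raised the share of calls that were higher from 49.7% to 58.3% in adenine and from 49.1% to 55.2% in DZ. The filter at a mean of 3 log2 CPM removed Spry2. Of the fold changes under all alternatives, 378 kept direction and call, 12 gained a call, 20 lost one, and 6 turned.

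Spry2 had the fewest reads, 232 to 577 in a library, and the part of depth in its spread was not tested. ERK activity, protein levels, and other times were not measured in these libraries.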

Other observations

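Fgf2, which encodes a growth factor that activates the ERK pathway in fibroblasts, was singled out after its values were seen. It was at 3.75, 3.72, and 3.75 log2 CPM in CTL, 4.92, 5.0, and 4.73 in adenine, and 4.68, 4.68, and 4.55 in SAM, whereas the DZ dishes were at 3.40, 3.66, and 0.66 (518, 624, and 73 reads). DZ replicate 3 lies far below the other 11 libraries, and with it the log2 fold change in DZ was -1.17 (SE 0.50, limma adjusted p = 0.0594), against -0.21 (SE 0.089, adjusted p = 0.0620) without it. The 4 groups shared 1 estimate of the spread, and adenine and SAM, whose dishes were all above the CTL dishes, were not called in this fit, at 1.14 (SE 0.50, limma adjusted p = 0.0549) and 0.90 (adjusted p = 0.117). In models without the DZ libraries both were called, adenine with an SE of 0.069 (limma adjusted p = 9.96e-09) and SAM with an SE of 0.059 (adjusted p = 2.32e-07), and voom called adenine (adjusted p = 0.00405) and not SAM (0.0176). What set this value apart in 1 library was not tested.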
